A study of Mus musculus with 6 samples.

Results

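Transcript levels of 33 genes of glycolysis and of the hypoxia response were compared between sorted skin cells of mice with an activated allele of the growth factor receptor PDGFRα and of mice without it. The members were chosen by name as the usual glycolytic enzymes and the targets of hypoxia-inducible factor, and all 33 had a row among the 37991 gene rows of the count files. They fall into 15 glycolytic enzymes, 6 transporters and regulators of flux, 11 other targets of hypoxia-inducible factor, and Hif1a, which encodes the oxygen-regulated subunit of that factor. RNA was sequenced from Nestin-GFP-positive cells that had been sorted out of the dermis and adherent subcutaneous white fat of pups aged 3 days. The mutant group (labelled Nes-GFP;Nes-Cre;PDGFRα+/[S]D842V) comprised 3 mice with the reporter, a Cre recombinase driven from Nestin sequences and 1 Pdgfra copy bearing the activating change D842V. The control group (labelled Nes-GFP+ cells) comprised 3 mice with the reporter, and its labels name no Cre, so the recombinase and the allele differ between the groups together. Both groups share the reporter, the sort and the age, and the recombined cells are those in which the Nestin sequences had been active.

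Glycolysis turns glucose into pyruvate in the cytosol. Glucose enters through facilitative transporters, hexokinases trap it as a phosphate ester, and in cells that ferment, lactate dehydrogenase and a monocarboxylate carrier dispose of the end product. Hypoxia-inducible factor is a pair of an alpha subunit, destroyed when oxygen is plentiful after hydroxylation by the EGLN enzymes, and the stable partner ARNT. The intact factor binds a short core motif in DNA and raises transcripts of nearly every glycolytic step together with genes of mitophagy, pH control, collagen hydroxylation and vessel tone. Growth factor receptors can raise many of the same genes through PI3K, mTOR and Myc, and the enzymes that hydroxylate collagen need oxygen, as the EGLN enzymes do.

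Gene counts per library ran from 15110824 to 18792939 in mutants and from 11912469 to 15839701 in controls, and levels are given as CPM, the count of a gene scaled to the total of all gene counts in its library. Differences are log2 fold changes of mutant over control from the quasi-likelihood test of edgeR, fitted on all 15035 genes that passed the filter on low counts, and a gene was called at an adjusted p (Benjamini-Hochberg over all genes) under 0.05. Pdgfra, the gene with the targeted allele, had 359, 351 and 361 CPM in mutants against 845, 820.3 and 863 CPM in controls (log2 fold change -1.24, edgeR adjusted p = 2.75e-06), and gene counts do not separate the alleles. Nes, whose sequences drive the sorting reporter, averaged 84.3 ± 14 CPM in mutants and 74.2 ± 5.51 CPM in controls (SD, n = 3 each, edgeR adjusted p = 0.28). All 9 pericyte markers were detected in every library, and 2 were called higher, Kcnj8 (log2 fold change 1.47, edgeR adjusted p = 7.59e-05) and Abcc9 (0.85, edgeR adjusted p = 0.000178), with none called lower. Of the 9 estimates 5 were negative, with a median of -0.06. The lowest was that of Rgs5 at -0.72 (edgeR adjusted p = 0.181, and 0.0064 with the replicate number as a block). Of 7 fibroblast markers 1 was called lower, Pdgfra itself, and the others lay between -0.27 for Lum and 0.46 for Pi16. Summed skeletal muscle markers came to 197 to 307 CPM in mutants and 89.7 to 104 CPM in controls (10 of 12 called higher), and summed endothelial markers to 234 to 323 CPM against 128 to 163 CPM (4 of 7 called higher). Summed keratinocyte markers came to 816 to 996 CPM in mutants and 368 to 646 CPM in controls (4 of 6 called higher). Of 5 mast cell markers tested, 3 were called higher and 1 lower, and summed smooth muscle markers came to 556 to 801 CPM in mutants and 889.7 to 1174 CPM in controls (1 of 7 called lower). In sorted bulk RNA, fewer cells of a type and less RNA per cell cannot be told apart.

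The cores ACGTG and GCGTG, letters that hypoxia-inducible factor is known to bind, were looked for within 250 bases upstream of the start sites. All 9 called members held 1 or both, as did 19 of the 21 other members with a window, which is 90.5%, and a selection is shown before the values. Among all tested genes with a window, 1 or both were present for 63.7% of those called lower, 60.1% of those called higher and 60% of those not called. The sequences are from RefSeq on GRCm38.p6, a later build than the mm9 of the counts, and were matched by symbol for 30 of the 33 members. Each runs 5′ to 3′ on the gene's own strand and ends at the base before the start site. Capitals mark the cores ACGTG and GCGTG on the printed strand, and their reverse complements CACGT and CACGC. Shown are 6 called members and 2 that were not called, Egln1, which holds both cores, and Tpi1, which holds neither. The most cores, 5 each, were in 1 window of Ldha and in that of Bnip3, which were neither called nor shown. Tpi1 and Gpi1 were the only 2 of the 30 members without a core.
Hk2, GRCm38.p6 chr6:82774455-82774704, minus strand: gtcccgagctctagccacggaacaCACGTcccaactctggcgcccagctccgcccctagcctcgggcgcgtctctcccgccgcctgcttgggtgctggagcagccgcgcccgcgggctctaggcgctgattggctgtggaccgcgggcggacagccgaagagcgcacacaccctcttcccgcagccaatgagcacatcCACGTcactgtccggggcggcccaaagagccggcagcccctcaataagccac
Pgam1, GRCm38.p6 chr19:41911621-41911870, plus strand: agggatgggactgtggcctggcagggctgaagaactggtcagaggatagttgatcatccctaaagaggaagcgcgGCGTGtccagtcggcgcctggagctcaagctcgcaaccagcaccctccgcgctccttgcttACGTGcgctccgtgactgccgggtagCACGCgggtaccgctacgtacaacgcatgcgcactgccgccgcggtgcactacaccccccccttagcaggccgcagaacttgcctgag
Slc2a1, GRCm38.p6 chr4:119108495-119108744, plus strand: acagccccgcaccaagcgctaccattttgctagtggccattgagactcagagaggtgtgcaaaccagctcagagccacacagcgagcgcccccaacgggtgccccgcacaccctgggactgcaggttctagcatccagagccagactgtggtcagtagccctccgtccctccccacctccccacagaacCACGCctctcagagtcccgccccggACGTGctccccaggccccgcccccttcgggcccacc
Slc16a3, GRCm38.p6 chr11:120948817-120949066, plus strand: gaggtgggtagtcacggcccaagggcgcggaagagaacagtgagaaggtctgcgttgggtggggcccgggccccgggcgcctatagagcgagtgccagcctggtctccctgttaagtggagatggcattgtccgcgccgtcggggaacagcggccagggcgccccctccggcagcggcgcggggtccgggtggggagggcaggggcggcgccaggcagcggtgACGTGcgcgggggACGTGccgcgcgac
Egln3, GRCm38.p6 chr12:54203875-54204124, minus strand: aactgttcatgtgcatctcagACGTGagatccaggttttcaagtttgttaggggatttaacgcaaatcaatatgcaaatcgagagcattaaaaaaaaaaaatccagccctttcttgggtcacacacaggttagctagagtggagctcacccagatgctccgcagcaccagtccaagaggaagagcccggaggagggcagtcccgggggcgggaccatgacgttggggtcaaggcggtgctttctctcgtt
Ddit4, GRCm38.p6 chr10:59951771-59952020, minus strand: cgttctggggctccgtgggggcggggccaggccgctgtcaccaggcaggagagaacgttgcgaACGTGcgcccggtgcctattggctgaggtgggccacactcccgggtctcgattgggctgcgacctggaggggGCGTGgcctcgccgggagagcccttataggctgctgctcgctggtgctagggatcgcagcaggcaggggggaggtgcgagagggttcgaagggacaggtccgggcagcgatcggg
Egln1, GRCm38.p6 chr8:124949255-124949504, minus strand: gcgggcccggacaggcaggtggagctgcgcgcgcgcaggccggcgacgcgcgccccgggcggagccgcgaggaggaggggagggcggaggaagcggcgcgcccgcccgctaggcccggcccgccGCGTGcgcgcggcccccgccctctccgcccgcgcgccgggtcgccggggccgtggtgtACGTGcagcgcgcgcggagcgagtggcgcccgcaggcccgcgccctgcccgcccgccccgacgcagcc
Tpi1, GRCm38.p6 chr6:124814159-124814408, minus strand: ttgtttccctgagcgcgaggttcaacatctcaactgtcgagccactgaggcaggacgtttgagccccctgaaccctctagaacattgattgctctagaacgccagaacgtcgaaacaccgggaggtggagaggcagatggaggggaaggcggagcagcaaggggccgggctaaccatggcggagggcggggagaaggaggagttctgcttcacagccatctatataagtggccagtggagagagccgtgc

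Taken alone, ACGTG on either strand was present in all 9 called members, against 10 of the 21 other members with a window, which is 47.6%. The related core GCGTG did not differ in this way, being present in 6 of the 9 called and 14 of the 21 other members, 66.7% of each. Roles differed in ACGTG too, with 7 of 15 enzymes (46.7%) and 8 of 9 other targets with a window (88.9%) holding it. Of the 9 called members 2 were enzymes and 5 other targets, while 13 of the 21 others were enzymes. Among the uncalled other targets, Bnip3, Car9 and Egln1 held ACGTG and Adm did not. The part of role in this contrast was not tested. The window of Hk2 holds ACGTG on its opposite strand at 226 and 52 bases upstream of the start site, and that of Slc16a3 holds it on the printed strand at 27 and 14 bases. Neither core overlapped the palindrome CACGTG in the windows of the called members, since none of the 9 held it. Across all 32851 RefSeq windows of this length, 16.6% held ACGTG and 28.2% held GCGTG. Among tested genes with a window, ACGTG was present for 27.2% of the 1044 called lower, 24.3% of the 922 called higher and 24.3% of the 9023 not called. GCGTG was present for 52.3%, 49.1% and 48.7% of these genes, in the same order. Among the other genes of the pathway, 3 of 12 called lower, 4 of 9 called higher and 21 of 61 not called held ACGTG. This is a count of letters in a fixed window, looked for with the calls in view, and windows of the called members were also richer in G and C (66.8% on average, against 60.5% in the other members).

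Of the 33 members, 9 were lower in mutant cells and 0 were higher, and 24 were not called. Among all genes tested, 9.13% were called lower and 8.63% higher. The median log2 fold change was -0.15 over the 33 members and 0.01 over all genes tested. In 14 members every mutant library lay below every control library, and in 4 every mutant library lay above. Among all genes tested the groups did not overlap in 37.1%, with the mutants below in 18.1% and above in 19%. With DESeq2, limma-voom and both other scalings, all 9 calls were kept. Hk2, Egln3, P4ha2 and Ddit4 were also called with any 1 library left out. Without control replicate 2 the members called lower numbered 5, since Ankrd37, Pgam1, Slc16a3 and Slc2a1 were then not called. The mutant libraries also had lower cell cycle markers, with summed levels of 945 to 972 CPM in mutants and 1078 to 1176 CPM in controls (5 of 9 called lower), and the part of cell cycle or of other cell types in these results was not tested. Genes that respond to tissue dissociation differed as well, with a summed level of 9428 to 10701 CPM in mutants and 4993 to 8168 CPM in controls. Of these 8 genes Jun was called higher (log2 fold change 0.58, edgeR adjusted p = 0.0118), and the heat shock genes Hspa1a (-1.86, edgeR adjusted p = 0.0119) and Hspa1b (-2.40, edgeR adjusted p = 0.00314) were called lower. Control replicate 1 had the lowest sum of the 6 libraries, and the part of dissociation in the calls of stress-induced members such as Ddit4 was not tested.

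**Figure D1:**
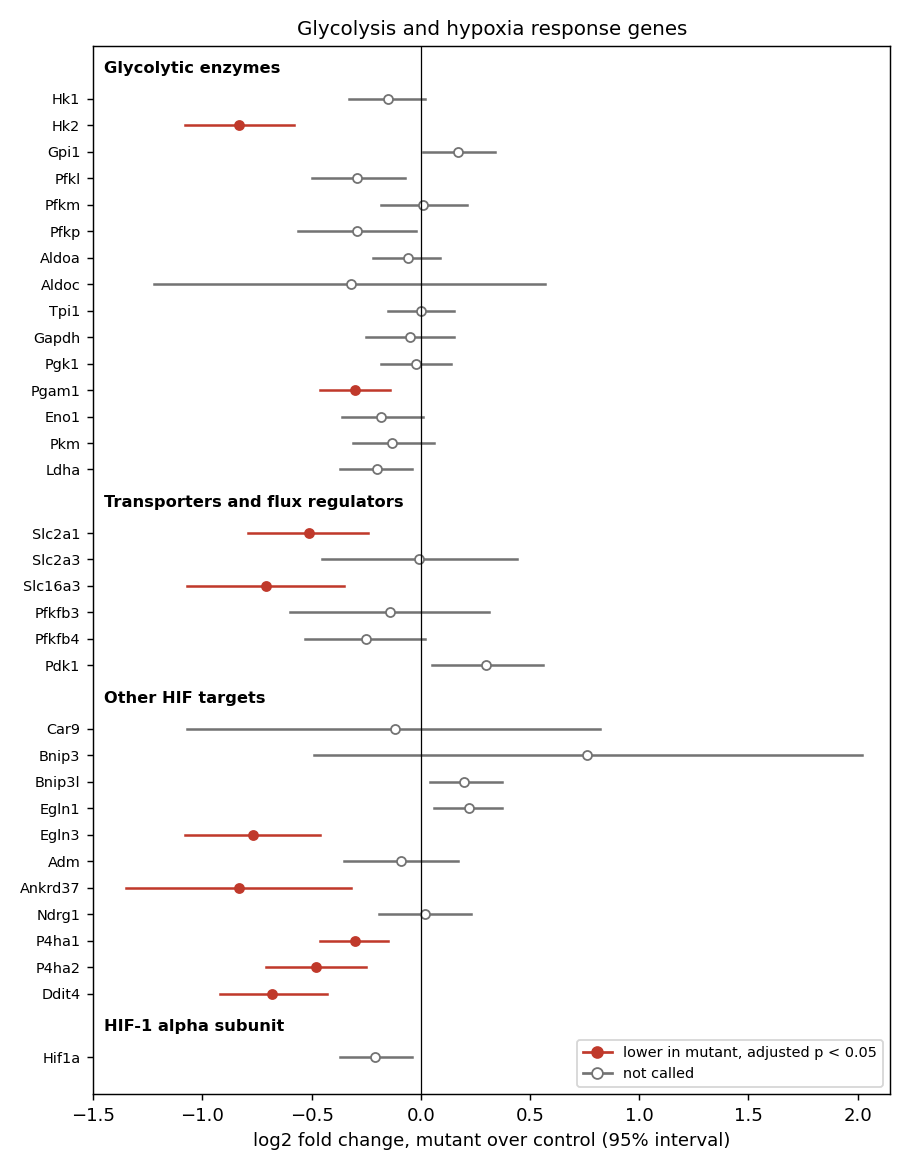
Log2 fold change of mutant over control (x axis) with its 95% interval for each of the 33 members, grouped by role (y axis). Filled red points are the 9 members called lower, from -0.83 for Hk2 and Ankrd37 to -0.30 for Pgam1 and P4ha1, and open grey points are the 24 not called.

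Of the 15 enzymes, 2 were called lower, hexokinase 2 and phosphoglycerate mutase 1, which is 13.3%, beside 9.13% of all genes tested. Hk2 encodes the inducible hexokinase that binds mitochondria and is raised by hypoxia and growth factors. It had 14, 14.6 and 12.7 CPM in mutant replicates 1 to 3, against 21.6, 24.3 and 27.3 CPM in control replicates 1 to 3. The highest mutant library lay well below the lowest control library. Its log2 fold change was -0.83 (95% interval -1.08 to -0.58, edgeR adjusted p = 0.00084), a level 0.563 times that of controls. Hk1, the constitutive hexokinase, had 51.5, 47.1 and 50.3 CPM in mutants and 57.3, 53.7 and 54.3 CPM in controls. The groups of Hk1 did not overlap either, but the difference was small and not called (log2 fold change -0.15, 95% interval -0.33 to 0.02, edgeR adjusted p = 0.21).

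Pgam1 encodes the mutase that moves the phosphate of 3-phosphoglycerate. It had 109.8, 103 and 103 CPM in mutants and 129, 132 and 128 CPM in controls. Every mutant library lay below every control library and the difference was small, with a log2 fold change of -0.30 (95% interval -0.46 to -0.14, edgeR adjusted p = 0.0153). The call was lost without mutant replicate 2, mutant replicate 3 or control replicate 2 (largest adjusted p = 0.0711).

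Tpi1, Pgk1, Gapdh and the enzymes with the highest levels per kilobase, Aldoa and Pkm, were not called. Tpi1, triose phosphate isomerase, had 139, 135 and 139 CPM in mutants and 138, 139 and 136 CPM in controls, with a log2 fold change of 0.00 and a 95% interval of -0.15 to 0.15. Pgk1, phosphoglycerate kinase and a classic target of hypoxia-inducible factor, had 120.2, 139.6 and 136 CPM against 129.9, 135 and 136 CPM (95% interval -0.18 to 0.14). Gapdh, often used to normalise other transcripts, had 227, 228 and 238 CPM in mutants and 251, 259.7 and 205 CPM in controls, with control replicate 3 below every mutant library (95% interval -0.25 to 0.15). Aldoa and Pkm, the muscle-type aldolase and pyruvate kinase, had the highest levels per kilobase of exon, with 69.2 and 65.2 CPM per kb in mutants and 72.3 and 71.2 CPM per kb in controls. Aldoa had 198, 206 and 201 CPM in mutants and 216, 216 and 200 CPM in controls (log2 fold change -0.06, edgeR adjusted p = 0.568). Pkm had 317, 312 and 349 CPM in mutants and 364, 379.9 and 324 CPM in controls (-0.13, edgeR adjusted p = 0.319), and the groups of both genes overlapped.

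The remaining enzymes were not called either. Ldha, which makes lactate from pyruvate, had 199, 209 and 193 CPM in mutants and 245, 227 and 218 CPM in controls, without overlap (log2 fold change -0.20, edgeR adjusted p = 0.0869). Eno1, enolase, overlapped between groups (-0.18, edgeR adjusted p = 0.176). The phosphofructokinases commit sugar to glycolysis. Their liver-type and platelet-type subunit genes Pfkl and Pfkp each had a log2 fold change of -0.29 (edgeR adjusted p = 0.0665 and 0.128), while the muscle-type gene Pfkm stood at 0.01. Gpi1, the isomerase of glucose 6-phosphate, had the only positive estimate among the enzymes apart from Pfkm and Tpi1, with 189, 187 and 191 CPM in mutants and 179, 165 and 158 CPM in controls (0.17, edgeR adjusted p = 0.136). Aldoc, the brain-type aldolase, was close to the limit of detection at 0.426 to 0.926 CPM in mutants and 0.672 to 1.2 CPM in controls.

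Glycolytic genes have many processed pseudogenes, and reads that align to several places are tallied in a closing row of each file and not under a gene. Gapdh matched 81 other annotated genes at 95% identity or more over 100 bases or more, 77 of them pseudogenes, so its level is uncertain. Pgam1 matched 1 pseudogene, whose row held at most 0.257% of the summed counts of the pair. Reads with more than 1 alignment made up 6.17% to 6.52% of the listed reads in mutants and 5.06% to 5.79% in controls, and their part in the small differences of Pgam1 and other copied genes was not tested. Hk2, Egln3, P4ha1, P4ha2, Ddit4 and Slc16a3 matched no other gene at that identity and overlapped none. Slc2a1 matched 1 other gene, Gm12868 overlaps it on the opposite strand, and the matching row held 1.86% to 3.47% of the summed counts. The rows that match Pfkp held 68.6% to 78.9% of the summed counts, those of Car9 37.5% to 76.2%, those of Gpi1 32.3% to 37.3% and those of Ankrd37 18.6% to 30.2%, so these 4 levels are uncertain too. Pfkp, Car9 and Ankrd37 each matched 1 gene that is no pseudogene. On the opposite strand Pitrm1 overlaps Pfkp and Gm12454 overlaps Car9. Overlapping genes were not left out of the search, so a matching row can hold such a neighbour's own transcripts, which was not tested.

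Of the 6 transporters and flux regulators, 2 were called lower (33.3%, beside 9.13% of all genes tested), a glucose transporter and a lactate exporter. Slc2a1 encodes GLUT1, the main glucose transporter of proliferating and stromal cells. It had 16.5, 17.4 and 18.9 CPM in mutants and 20, 28.7 and 26.9 CPM in controls. Control replicate 1 stood nearer to the mutants than to the other controls. The log2 fold change was -0.51 (95% interval -0.79 to -0.24, edgeR adjusted p = 0.0171), and the call was lost without mutant replicate 1, control replicate 2 or control replicate 3 (largest adjusted p = 0.0742). The neuronal-type transporter gene Slc2a3 was low and overlapped between groups, with 3.79, 4.43 and 5.53 CPM in mutants and 4.04, 5.71 and 4.2 CPM in controls (log2 fold change -0.01, 95% interval -0.45 to 0.44).

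Slc16a3 encodes MCT4, the lactate exporter of glycolytic cells. It had 5.55, 5.82 and 5.43 CPM in mutants and 8.02, 11.2 and 8.33 CPM in controls, where control replicate 2 was the highest library. The log2 fold change was -0.71 (95% interval -1.07 to -0.35, edgeR adjusted p = 0.013), and the adjusted p was 0.0574 without control replicate 2. The more abundant carrier gene Slc16a1, which encodes MCT1 and is no member, had a log2 fold change of -0.30 that missed the threshold (edgeR adjusted p = 0.0521) and passed it with RLE scaling and, at 0.00806, without control replicate 1. Slc16a7, encoding MCT2, fell by 0.59 on the log2 scale (edgeR adjusted p = 0.0107), a call lost without mutant replicate 3 or control replicate 3 (largest adjusted p = 0.0506).

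The regulators of flux among them were not called. Pfkfb3 and Pfkfb4 make the sugar bisphosphate that activates phosphofructokinase, and their log2 fold changes were -0.14 and -0.25 (edgeR adjusted p = 0.659 and 0.189). Pfkfb3 had 21.1, 36.1 and 23.8 CPM in mutants and 25.1, 34 and 30.2 CPM in controls, with wide overlap. Pdk1, a kinase that shuts pyruvate out of mitochondria and a target of hypoxia-inducible factor, had a positive estimate. It had 28.3, 36.7 and 26 CPM in mutants and 24.9, 24.7 and 23.8 CPM in controls. All mutant values were above all control values, mutant replicate 2 most of all, and the difference was not called (log2 fold change 0.30, edgeR adjusted p = 0.0949). It was called higher without mutant replicate 3 (adjusted p = 0.0466) and with no filter on low counts (0.0336).

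**Figure D2:**
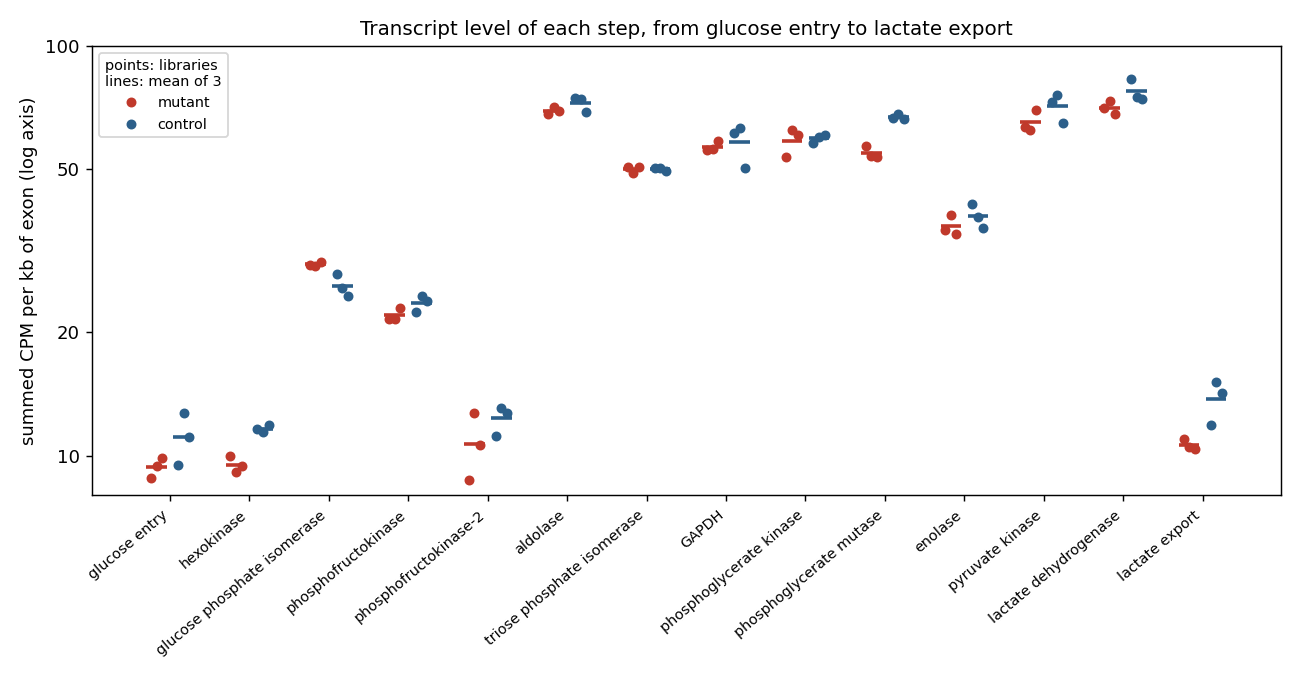
Summed CPM per kilobase of exon (log axis) over the genes chosen for each step, ordered from glucose entry to lactate export, with mutant libraries in red to the left of control libraries in blue and lines at the mean of 3. Hexokinase, phosphoglycerate mutase, lactate dehydrogenase and lactate export lay lower in all mutant libraries, glucose phosphate isomerase lay higher, and the triose phosphate isomerase and phosphoglycerate kinase steps coincide.

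Steps were summed over the genes chosen for each and scaled by exon length, and Adpgk, Slc2a8 and Bpgm were left out of the sums. The carriers grouped as lactate export (Slc16a1, Slc16a3 and Slc16a7) were 22.5% lower in mutants by the ratio of means, and no other plotted step had a wider gap. Most of this sum was Slc16a1, with 81.1% to 83.4% in mutants and 77.4% to 79.8% in controls. Slc16a3 made up 9.47% to 10.4% in mutants and 11% to 14% in controls. Transcript counts do not show the direction of transport. Export came to 10.6 ± 0.325 CPM per kb in mutants and 13.7 ± 1.62 CPM per kb in controls (SD, n = 3 each). Hexokinase came to 9.51 ± 0.425 CPM per kb in mutants and 11.6 ± 0.27 CPM per kb in controls, and phosphoglycerate mutase to 54.9 ± 1.76 against 67.1 ± 0.912 CPM per kb. The groups did not overlap in these 3 steps. For GAPDH and phosphoglycerate kinase the means differed by 2.65% and 1.17% of the control mean, less than the spread between control libraries.

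The make-up of some steps also differed by library. Hk2 made up 22.5% to 26.7% of hexokinase transcript per length in mutants and 31.3% to 38.3% in controls, with Hk1 at 60.4% to 62.5% and 53.3% to 58.1%. Hk3, the hexokinase of myeloid cells, had 10.6% to 11.8% in mutants and 5.58% to 8.46% in controls, at levels of 2.45 to 4.1 CPM in all libraries, and was not called (edgeR adjusted p = 0.199). Lactate dehydrogenase B, the heart-type subunit, took 13.7% to 14.9% of that step in mutants and 8.75% to 11.4% in controls. The log2 fold change of Ldhb itself was 0.36 (edgeR adjusted p = 0.0729, and 0.0486 without control replicate 1). Among the kinases of pyruvate dehydrogenase, Pdk2 took 36% to 41.6% in mutants and 28.3% to 31.8% in controls, and Pdk3 28.2% to 33.9% against 41.9% to 47.4%. These shares are ratios within a library and show unequal change only. The muscle isoform genes Pgam2 (log2 fold change 0.08) and Eno3 (0.26) were not called, beside the higher muscle markers given above. Their shares were nevertheless higher in every mutant library than in any control library. Eno3 took 15.5% to 18.9% of enolase in mutants and 11.9% to 15.1% in controls. Pgam2 took 2.59% to 3.5% of phosphoglycerate mutase in mutants and 2.2% to 2.55% in controls. Pgam2 was low, at 1.24 to 1.59 CPM in mutants and 1.26 to 1.42 CPM in controls. The part of muscle RNA in these steps was not tested.

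**Figure D3:**
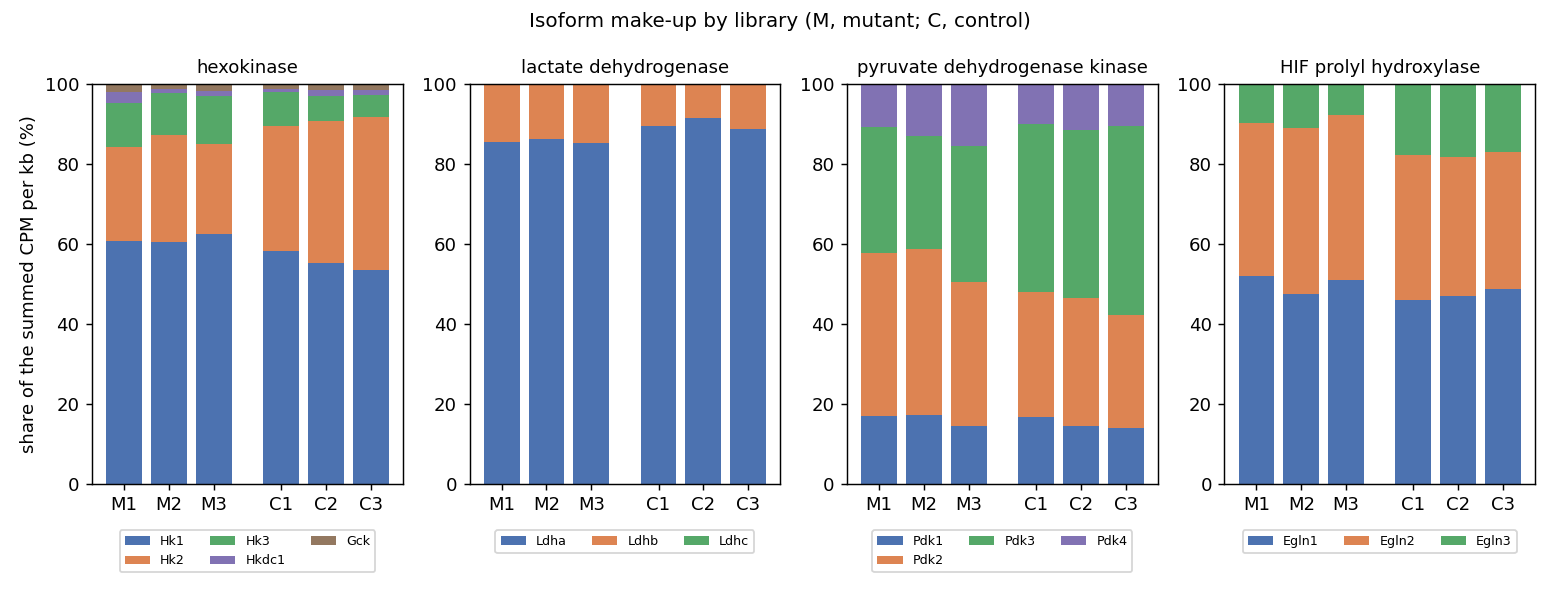
Share of each isoform in the summed CPM per kilobase (y axis, percent) for 4 enzyme families, 1 bar per library with mutants (M1 to M3) left of controls (C1 to C3). The Hk2 share lies at 22.5% to 26.7% in mutants and 31.3% to 38.3% in controls, and the Egln3 share at 7.72% to 11% in mutants and 17.2% to 18.2% in controls.

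Of the 11 targets of hypoxia-inducible factor outside glycolysis, 5 were called lower and none higher. This is 45.5% called lower, beside 9.13% of all genes tested. Their median log2 fold change of -0.12 was nevertheless close to the -0.15 of the enzymes, because the other 6 lay between -0.12 and 0.76. The median of the other targets was the estimate of Car9 alone, which had a standard error of 0.436. Car9 had only 5 to 20 counts in mutant libraries and 8 to 19 in control libraries, and its level is uncertain. The closeness of these medians therefore rests on an imprecise estimate. The enzymes spread from -0.83 to 0.17, and 12 of the 15 had a negative estimate, against 7 of the 11 other targets. The median of the 11 moved to -0.28 without mutant replicate 2 or mutant replicate 3, to -0.24 and -0.27 without control replicate 1 and control replicate 2, and to -0.05 without control replicate 3. The enzymes and the other targets were not tested against each other.

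Egln3 encodes the oxygen-sensing prolyl hydroxylase PHD3, itself induced by hypoxia-inducible factor. It had 10.1, 11.8 and 8.03 CPM in mutants and 17.2, 17.5 and 16.2 CPM in controls. The control libraries were close together and all mutant libraries lay below them, with a log2 fold change of -0.77 (95% interval -1.08 to -0.46, edgeR adjusted p = 0.00418). The other oxygen sensors had positive estimates. Egln1, the main hydroxylase of the alpha subunits, had 71.1, 69.3 and 71.4 CPM in mutants and 59.4, 60.9 and 62 CPM in controls (log2 fold change 0.22, edgeR adjusted p = 0.0569), and it was called higher with upper quartile scaling (adjusted p = 0.036). Egln2, which is no member, was called higher at 0.33 (edgeR adjusted p = 0.0182), a call lost without mutant replicate 2 or 3 or control replicate 2 or 3 (largest adjusted p = 0.0678). Egln3 thus made up 7.72% to 11% of the 3 hydroxylases per length in mutants and 17.2% to 18.2% in controls, while their sum was 39.2 ± 1.24 CPM per kb in mutants and 35.9 ± 0.439 CPM per kb in controls (SD, n = 3 each).

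P4ha1 and P4ha2 encode the catalytic subunits of collagen prolyl 4-hydroxylase, which lets collagen chains fold into a stable triple helix. P4ha1 had 136, 131 and 129 CPM in mutants and 157, 163 and 169 CPM in controls (log2 fold change -0.30, edgeR adjusted p = 0.0135), and the call was lost without mutant replicate 3 (adjusted p = 0.0645). P4ha2 had 121, 97.7 and 99.6 CPM in mutants and 160.0, 146 and 137 CPM in controls, with mutant replicate 1 nearest to the controls (log2 fold change -0.48, 95% interval -0.71 to -0.25, edgeR adjusted p = 0.0111). The groups did not overlap for either subunit. The abundant collagen genes Col1a1 and Col3a1 were not called (edgeR adjusted p = 0.156 and 0.487), though Col1a1 was called lower with DESeq2, with no filter on low counts (0.0355) and without mutant replicate 1 (0.0449).

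Ddit4, also known as REDD1, is an inhibitor of mTORC1 that hypoxia, glucocorticoids and ATF4 all induce. It had 30.4, 33.4 and 32 CPM in mutants and 41.2, 58.5 and 53.4 CPM in controls. Control replicate 1 was the lowest control and still above every mutant, and the log2 fold change was -0.68 (95% interval -0.92 to -0.43, edgeR adjusted p = 0.00275). Ankrd37, a small ankyrin repeat protein gene, had only 1.99 to 2.98 CPM in mutants and 3.35 to 5.29 CPM in controls (log2 fold change -0.83, edgeR adjusted p = 0.031). Its call was lost without mutant replicate 1 or 2 or control replicate 2 or 3 (largest adjusted p = 0.114). Lrp2bp and Ufsp2 overlap Ankrd37 on the opposite strand, and with no strand setting given in the sources used here its reads are uncertain.

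**Figure D4:**
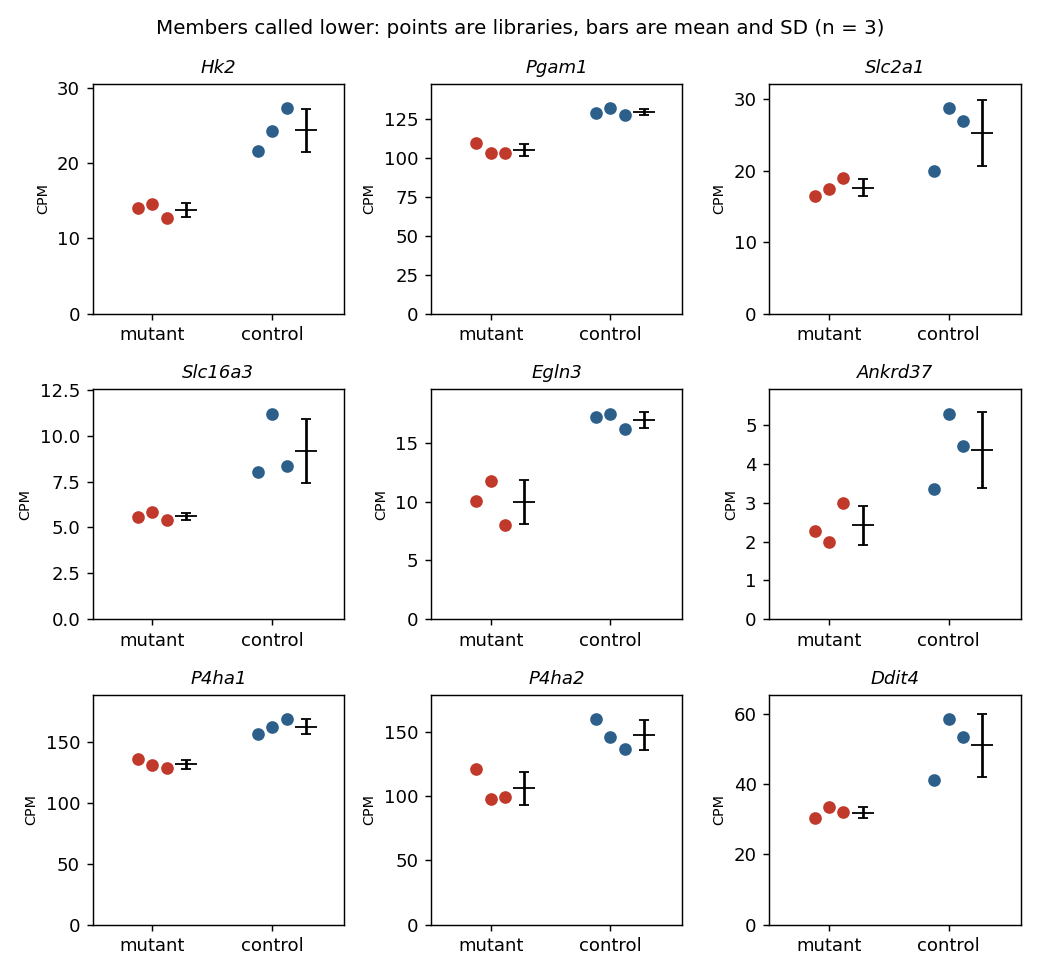
CPM of the 9 members called lower (y axes from 0), 1 point per library with mutants in red left of controls in blue, and the mean with its SD (n = 3) beside each group. No mutant library reaches a control library in any panel, and control replicate 1 is the lowest control in 6 of the 9 panels (Hk2, Slc2a1, Slc16a3, Ankrd37, P4ha1 and Ddit4).

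The other targets showed no call. Bnip3 and Bnip3l encode outer membrane receptors for the removal of mitochondria. Bnip3 had 16.1, 42.9 and 16.4 CPM in mutants and 12.3, 13.9 and 17.8 CPM in controls, so that its log2 fold change of 0.76 (95% interval -0.49 to 2.02) rested on mutant replicate 2 and was 0.16 without that library. Summed fat cell markers came to 258, 565 and 249 CPM in mutants and 148, 154 and 232 CPM in controls. Mutant replicate 2 stood apart, and the other mutant libraries also lay above every control library. Of 6 tested markers 5 had a positive estimate and 1 was called higher, Fabp4 (log2 fold change 0.84, edgeR adjusted p = 0.0243). That call was lost without mutant replicate 3 or control replicate 1 or 2 (largest adjusted p = 0.0704). Lep was at 0 in all mutant libraries. The part of fat cells in the Bnip3 value was not tested. Bnip3l had 109, 119 and 111 CPM in mutants and 92.2, 94.9 and 107 CPM in controls, without overlap (0.20, edgeR adjusted p = 0.0861). Adm, which encodes the vasodilator adrenomedullin, and Ndrg1, a stress-induced gene, lay at -0.09 and 0.02 with overlapping groups. Car9, a carbonic anhydrase gene that responds strongly to hypoxia, was near the floor in every library, at 0.326 to 1.06 CPM in mutants and 0.672 to 1.23 CPM in controls.

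Hif1a itself had 102, 102 and 96.1 CPM in mutants and 114, 109.6 and 123 CPM in controls. Every mutant library was below every control library, and the log2 fold change of -0.21 (95% interval -0.37 to -0.04) was not called (edgeR adjusted p = 0.0765). Control of the alpha subunit lies mainly in its protein, which these counts do not measure. Of 14 other regulators of the factor, none was called lower and 2 were called higher (14.3%, beside 8.63% of all genes tested). These were Egln2 and Arnt2. The groups of Arnt2 overlapped, and its call was lost without mutant replicate 2 or 3, control replicate 1 or 3 and with DESeq2 (largest adjusted p = 0.155). The usual partner subunit gene Arnt and Epas1, which encodes the alpha subunit HIF-2 alpha, had log2 fold changes of -0.08 and 0.29 without a call (edgeR adjusted p = 0.463 and 0.142).

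A wider list of targets of the factor held calls in both directions. Of 28 tested, 4 were called lower (14.3%) and 2 higher (7.14%), beside 9.13% and 8.63% of all genes tested. The median log2 fold change of the list was -0.04. Stc2, a secreted glycoprotein gene, was at 6.4, 5.63 and 6.6 CPM in mutants and 11.4, 9.49 and 12.8 CPM in controls (log2 fold change -0.86, edgeR adjusted p = 0.00378). Wsb1 (-0.46), a ubiquitin ligase gene, Tfrc (-0.46), the transferrin receptor gene, and Edn1 (-0.64), the endothelin gene, completed the falls, and the call of Edn1 was lost in most of the alternatives (largest adjusted p = 0.132). Hmox1, the haem oxygenase gene that oxidative stress also induces, rose, with 45.6, 46.7 and 59.2 CPM in mutants and 30.1, 33.8 and 32.1 CPM in controls (0.66, edgeR adjusted p = 0.00173). Rragd (0.61) rose as well, a call lost without mutant replicate 1 or 3 or control replicate 1 or 2 (largest adjusted p = 0.127). Vegfa, the best known target, had 83.5, 76.4 and 82.2 CPM in mutants and 81.2, 103 and 96.9 CPM in controls and was not called (-0.21, edgeR adjusted p = 0.129, and 0.0235 without control replicate 1). Igfbp3, which encodes a binding protein of insulin-like growth factors, had the highest estimate of the list, with 719.9, 869 and 901 CPM in mutants and 240.2, 474 and 457 CPM in controls. All mutant libraries lay above all controls, control replicate 1 being lowest, and the difference just missed the threshold (1.09, edgeR adjusted p = 0.0507). Igfbp3 was called higher with DESeq2 (0.00231), with the replicate block (0.00448), with upper quartile scaling, with a filter of 1 CPM and without control replicate 1 (8.26e-05) or control replicate 2.

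Outside the members, other genes of glucose metabolism showed calls near the background, 3 higher and 3 lower of 41 tested, 7.32% each. Adpgk, an ADP-dependent glucokinase gene, fell by 0.44 on the log2 scale (edgeR adjusted p = 0.0039), with 35.6, 35.5 and 33 CPM in mutants and 45.3, 48.3 and 47.3 CPM in controls. Slc16a7 and Taldo1, transaldolase of the pentose phosphate route (-0.26), were the other falls, and the call of Taldo1 was lost with upper quartile scaling and without mutant replicate 2 or 3 or control replicate 1 or 2 (largest adjusted p = 0.101). Pgm1, which links glycolysis with glycogen, rose (0.53, edgeR adjusted p = 0.00292), as did Pdk2 (0.57, edgeR adjusted p = 0.00865) and the gluconeogenic phosphatase gene Fbp1 (1.09, edgeR adjusted p = 0.00885, with 4.24 to 6.75 CPM in mutants and 2.21 to 3.53 CPM in controls).

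The strongest change among regulators of glucose use was in Txnip, which encodes a protein that drives glucose transporters off the cell surface and is itself induced by glucose. Txnip had 784, 1072 and 937 CPM in mutants and 379, 443 and 431 CPM in controls. Per kilobase its mean level of 298 CPM in mutants and 134 CPM in controls was above that of every member. All mutant libraries were far above all controls, with a log2 fold change of 1.15 (95% interval 0.93 to 1.38, edgeR adjusted p = 6.57e-05), and the call was kept in all 14 alternatives. Arrdc4, its close relative under the same sugar-sensing transcription factors, had a log2 fold change of 0.34 that was not called (edgeR adjusted p = 0.0627) and was called without control replicate 1 (0.00405).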

How the data were processed

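The authors deposited whole-number read counts per Ensembl gene, 1 file per library. The submitters' processing notes list mm9 as build and, with no role for any, DESeq2, HTSeq 0.5.3, TopHat2 2.0.4, cutadapt 1.1 and FastQC. They hold no strand setting. The 5 closing rows of each file that name no gene, 36.9% to 41.7% of listed reads, stayed out of library sizes and tests. Symbols were matched by identifier for 86.6% of gene rows, and exon lengths came from GENCODE on GRCm38, so levels per kilobase are approximate. CPM is counts over the library's gene total without further scaling. At these depths 3 counts, the limit that a count of 0 allows, equal 0.16 to 0.252 CPM, counting error only.

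Counts were scaled by TMM (factors 0.974 to 1.02), filtered with filterByExpr (minimum count 10, minimum total 15) and modelled in R 4.3.3 with edgeR 4.0.16 (robust quasi-likelihood F test, group as the only term, Benjamini-Hochberg over all genes); limma 3.58.1 and DESeq2 1.42.0 served as alternatives. The code was tested on simulated data. Step sums add CPM per kb over the genes chosen for each family. Near-identical copies were sought with blastn 2.17.0 among GENCODE transcripts. All 6 libraries counted as separate samples, as they are labelled. Pairs of libraries of 1 group differed beyond sampling noise (chi-square per degree of freedom 4.73 to 13.3), which alone cannot show that they came from separate mice.

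The members, gene lists and rule for named genes were chosen with earlier results of these data known. That rule gave per-library values to called members, to uncalled members of the same family, to Hif1a and to the pair of members with the highest level per kilobase in each role. From each list of other pathway genes it named the called genes with the 4 smallest adjusted p, and other genes named were chosen after their values were seen. No set test was run.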

Additional observations from a re-analysis of the deposited data

How the results depend on the processing

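Results were recomputed under 14 alternatives, 6 of them leaving out 1 library. Of the 9 members called lower, 4 were called in all 14 (Hk2, Egln3, P4ha2 and Ddit4), and the other 5 each lost the call only with some library left out. With 1 library left out, the members called lower numbered 5 to 9, the members called higher 0 to 1, the enzymes called lower 1 to 2, and the other targets of hypoxia-inducible factor called lower 4 to 5. Over the same 6 settings all calls numbered 1411 to 2699 (658 to 1199 higher, 753 to 1500 lower), against 2670 with all libraries, and other pathway genes called higher 5 to 11. The median log2 fold change ran from -0.21 to -0.10 for the enzymes and from -0.28 to -0.05 for the other targets. These settings hold fewer samples.

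With no filter on low counts, 4 enzymes were called lower (Pfkl and Pfkp added) and 1 member higher (Pdk1), and with upper quartile scaling 1 member was higher (Egln1). The median of the other targets, in the main fit the estimate of Car9 alone, was -0.23 with limma-voom, and the cause was not tested.

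By the replicate numbers in the labels, the deviations of same-numbered libraries correlated at 0.117, -0.0294 and -0.0873. Those of differently numbered libraries ran from -0.101 to 0.159. With 3 libraries per group and no known pair to compare, this cannot decide whether the libraries were paired. The replicate numbers used are those of the sample titles. The deposited files number the mutants 2 to 4, and by that numbering the shared numbers 2 and 3 correlated at -0.0572 and 0.159. With the replicate number as a block, 10 members were called (Pfkl added), 2767 genes in all, and the median of the other targets was -0.18.

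No direction turned among the called genes of the members and the wider lists. Car9, Aldoc, Ankrd37 and Slc2a3, at under 6 CPM in every library, are limited by depth. Slc16a3 was under 6 CPM in every mutant library.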

Other observations

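Energy sensing and growth control genes outside the hypoxia response moved in both directions. Of 15 genes listed as regulators of glucose use outside hypoxia-inducible factor, 6 were lower (40%) and 3 higher (20%), with a background of 9.13% and 8.63%. Both catalytic subunit genes of AMP-activated kinase were lower. Prkaa1 had 32.4, 29.1 and 30.4 CPM in mutants and 36.8, 41.6 and 46.6 CPM in controls (log2 fold change -0.44, edgeR adjusted p = 0.0105), and Prkaa2 had a log2 fold change of -0.67 (edgeR adjusted p = 0.0174), a call lost without mutant replicate 3 or control replicate 3 (largest adjusted p = 0.0732). Trp53, the p53 gene, was lower in every mutant library than in any control library (80.2, 87.4 and 85.4 CPM in mutants, 105, 127 and 106 CPM in controls, log2 fold change -0.42, edgeR adjusted p = 0.00678). Sesn2, a stress-induced inhibitor of mTORC1, had 8.42, 13.6 and 8.41 CPM in mutants and 17.2, 21.1 and 16.3 CPM in controls (-0.85, edgeR adjusted p = 0.0122), so that it and Ddit4 were both lower.

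Mycn (-0.60, edgeR adjusted p = 0.00889) and Max (-0.37, edgeR adjusted p = 0.00751) fell, while Myc, which Max partners, was not called (-0.13, edgeR adjusted p = 0.429). The kinase genes Akt1 (0.24) and Akt2 (0.25) rose by little. The call of Akt1 was lost without any 1 library other than control replicate 1 (largest adjusted p = 0.115), and that of Akt2 without mutant replicate 1 or 3 or control replicate 2 or 3 (largest adjusted p = 0.105). Mtor and Rptor were not called (-0.12 and -0.04). Prkaa1, Prkaa2, Sesn2, Myc, Akt1, Akt2, Mtor and Rptor were named after their values were seen.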
